A study of Homo sapiens with 6 samples.

Results

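The genes described here carry out the steps between the degradation of a protein and the display of its peptides on MHC class I. They are the immunoproteasome subunits PSMB8, PSMB9 and PSMB10, the proteasome activator subunits PSME1 and PSME2, the peptide transporter subunits TAP1 and TAP2, the chaperone tapasin (TAPBP), and the aminopeptidases ERAP1 and ERAP2. They were chosen by gene symbol for these roles, with earlier results of these data known. Each of the 10 symbols matched 1 of the 29889 genes in the deposited tables. A549, a human lung adenocarcinoma cell line, was transfected with a pIRES-hrGFP-1a plasmid holding CELF6, an RNA-binding protein of the CUGBP Elav-like family (CELF6-OE), or with the empty plasmid (Control). Cells of both groups received Lipofectamine 2000 and plasmid DNA and were harvested after 48 h, and poly(A) RNA was sequenced from 3 biological replicates per group. Transient transfection of 1 cell line limits the model, and untransfected cells were not analysed here.

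In every cell, the proteasome cuts worn or foreign proteins into peptides. Interferons induce the immunoproteasome subunits, which replace the catalytic subunits of the standard proteasome, and PA28, a ring of PSME1 and PSME2 subunits, caps the core particle and speeds peptide release. The TAP1 and TAP2 heterodimer pumps the peptides into the endoplasmic reticulum, where tapasin holds empty class I molecules next to the transporter and ERAP1 and ERAP2 trim peptides that are too long. Tumor cells with little of this machinery are known to be poorly visible to cytotoxic T cells.

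The total count was 33748328 to 35413404 per library in CELF6-OE and 36422617 to 37920700 in Control, so depth was lower in CELF6-OE, and its part in the results was not tested beyond the scaling of library sizes. CELF6 had 18646, 20789 and 11571 counts over CELF6-OE replicates 1 to 3, and 0 in every Control library, which allows up to 3. These counts do not separate transcripts of the plasmid from those of the cells' own CELF6 gene. Keratins and aldo-keto reductases typical of A549 were abundant. The summed FPKM (fragments per kilobase of transcript, scaled to the size of the library) of 8 such markers ran from 5876 to 7191 for CELF6-OE and from 7803 to 7991 for Control. EPCAM and CDH1, the gene of E-cadherin, were the lowest of the 8. Their mean FPKM was 1.03 and 3.58 in CELF6-OE, against 1.34 and 10.8 in Control. Of the 8 markers 5 fell, with CDH1 lower by a log2 difference of -1.62 (adjusted p = 0.000105), and their part in the results was not tested. Of 7 markers of alveolar type 2 cells, the surfactant genes lay at an FPKM of at most 0.04, and LAMP3, which carries most of the summed level of the list (2.38 to 5.05 for CELF6-OE, 16.8 to 17.8 for Control), was lower by -2.54 on the log2 scale (adjusted p = 4.45e-05). NAPSA was at -0.86 (adjusted p = 0.0536). NKX2-1 had a mean FPKM of 0.04 in CELF6-OE and 0.033 in Control, too low to be tested. Leukocytes are known to hold much immunoproteasome. Of 16 leukocyte markers, CD2, CD3D, CD3E, CD53 and NKG7 had no listed count, and the others summed to an FPKM between 4.04 and 5.31 for CELF6-OE and between 3.65 and 4.48 for Control. Most of it came from CD14, at an FPKM of 3.02 to 4.53, and PTPRC, the common leukocyte antigen, reached at most 0.01. The part of such cells in the results was not tested.

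All 10 members fell in CELF6-OE, to between 31.9% and 60.3% of the Control level. By the quasi-likelihood test of edgeR, adjusted after Benjamini and Hochberg over 15847 genes, the adjusted p lay between 1.61e-05 and 0.0101. Among all tested genes, 11.5% were lower at an adjusted p under 0.05, and 6.47% were higher. Each member was also a differentially expressed gene (DEG) by the thresholds of the study's methods, p under 0.01 with at least a 1.5-fold change, which 5.91% of all tested genes met in this direction and 1.36% in the other. The median log2 fold change of the members was -0.98, against 0.011 over all tested genes. For each of the 10 members, the 3 CELF6-OE libraries lay below the 3 Control libraries, as they did for 3165 or 20% of all tested genes, and 17.9% lay wholly above. In bulk RNA, less RNA per cell and fewer cells that express a gene cannot be told apart.

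**Figure D1:**
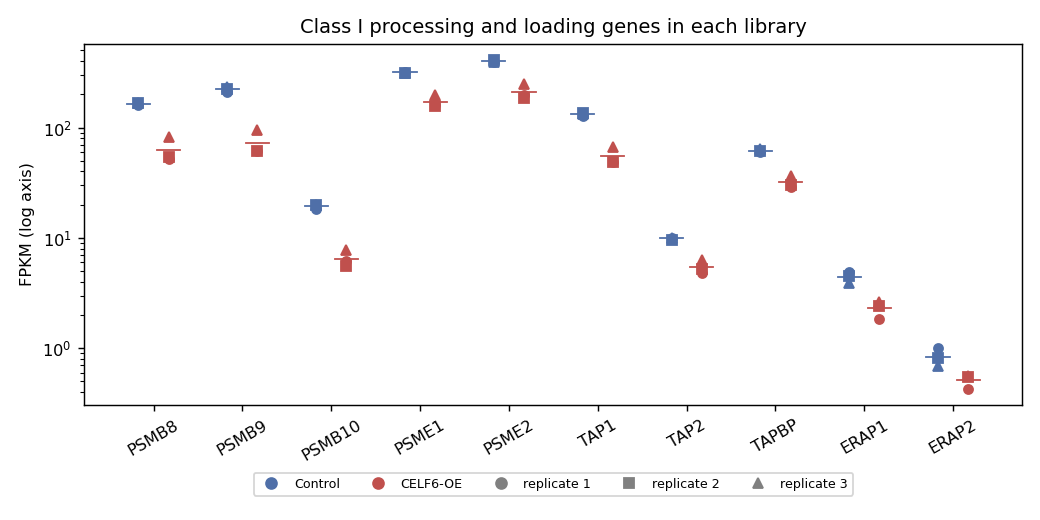
FPKM on a log axis of the 10 genes in each library, with Control in blue, CELF6-OE in red, the replicate shown by the symbol and the group mean by a line. The groups do not overlap for any gene, and Control levels run from 0.833 for ERAP2 to 398 for PSME2.

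The members lie on 4 chromosomes. In GENCODE v44 on GRCh38, TAP2 (chr6:32821833-32838739), PSMB8 (chr6:32840717-32844679), TAP1 (chr6:32845209-32853816) and PSMB9 (chr6:32844136-32859851) lie together in the class II region of the MHC. PSMB9 is on the plus strand, and its longest annotated span runs across TAP1, while the others are on the minus strand. TAPBP (chr6:33299694-33314284) lies farther along the same arm on the minus strand. PSME1 (chr14:24136163-24138967) and PSME2 (chr14:24143362-24147570) face each other on chromosome 14. ERAP1 (chr5:96760810-96808100, minus strand) and ERAP2 (chr5:96875986-96919703, plus strand) are neighbours on chromosome 5, and PSMB10 (chr16:67934506-67936864, minus strand) stands alone. The files give the chromosome without coordinates, and it was the same for each member. They list PSMB8 as ENSG00000204264.8, PSMB9 as ENSG00000240065.7, PSMB10 as ENSG00000205220.11, PSME1 as ENSG00000092010.14, PSME2 as ENSG00000100911.13. The others are TAP1 as ENSG00000168394.10, TAP2 as ENSG00000204267.13, TAPBP as ENSG00000231925.11, ERAP1 as ENSG00000164307.12 and ERAP2 as ENSG00000164308.16.

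The promoters of these genes are known targets of interferon regulatory factors, so the RefSeq windows from 250 bases before to 50 bases after each annotated start (GRCh38.p14) were searched on both strands. All 10 genes matched, with 14 windows. GAAA repeated after a gap of any 2 bases, the core of the interferon-stimulated response element, was found in at least 1 window of 9 members, and in 4.38% of all 27305 genes with a window (3.57% of 35116 windows). Among the 10388 tested genes with a window the share was 4.10%. Among the 563 of them that were DEGs lower in CELF6-OE, which include members, it was 15.6%. The stretches around the matches are shown because the same short motif recurs near the starts of genes on different chromosomes. They are written 5′ to 3′ on the strand of the gene, with the motif, or its reverse complement, in capitals.

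PSMB8 (chr6:32844030-32844063): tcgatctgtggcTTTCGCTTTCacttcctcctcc
PSMB10 (chr16:67936850-67936883): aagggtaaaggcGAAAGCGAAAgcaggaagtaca
PSME1 (chr14:24136187-24136220): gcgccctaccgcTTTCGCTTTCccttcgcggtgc
PSME2 (chr14:24146617-24146650): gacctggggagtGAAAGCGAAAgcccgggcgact
TAP1 (chr6:32853811-32853850): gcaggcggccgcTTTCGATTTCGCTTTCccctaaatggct
TAP2 (chr6:32838776-32838809): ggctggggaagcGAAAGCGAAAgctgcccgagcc
TAPBP (chr6:33314071-33314110): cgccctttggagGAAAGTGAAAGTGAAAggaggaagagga
ERAP1 (chr5:96807922-96807955): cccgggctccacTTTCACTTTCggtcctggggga
ERAP2 (chr5:96876458-96876491): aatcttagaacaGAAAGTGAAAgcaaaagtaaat

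In TAP1 and TAPBP, overlapping copies of the motif formed 1 longer run. TAP1 and PSMB9 point away from each other from nearby RefSeq starts, and their windows overlap at the outer ends. The TAP1 window (chr6:32853655-32853954, minus strand) holds the interferon response motif followed by matches to the kappaB consensus, the site of NF-kB, all in capitals, whereas the neighbouring PSMB9 window (chr6:32853942-32854241, plus strand) holds no match to the motifs searched. No match says only that these letters are not in this window.

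TAP1: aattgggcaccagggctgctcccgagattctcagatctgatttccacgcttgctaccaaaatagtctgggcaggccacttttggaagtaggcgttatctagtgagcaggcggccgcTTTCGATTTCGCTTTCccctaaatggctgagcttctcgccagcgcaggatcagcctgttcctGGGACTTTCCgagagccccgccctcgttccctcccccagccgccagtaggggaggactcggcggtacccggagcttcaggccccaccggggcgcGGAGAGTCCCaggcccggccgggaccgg
PSMB9: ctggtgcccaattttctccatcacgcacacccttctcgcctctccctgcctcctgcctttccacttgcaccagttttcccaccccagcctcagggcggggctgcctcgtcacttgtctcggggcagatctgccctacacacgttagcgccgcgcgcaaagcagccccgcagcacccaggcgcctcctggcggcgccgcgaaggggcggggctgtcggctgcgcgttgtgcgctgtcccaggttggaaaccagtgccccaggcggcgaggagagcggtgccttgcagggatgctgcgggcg

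The kappaB consensus matched windows of TAP1, TAPBP and ERAP1, and of 7.09% of all genes, 9.21% of the tested genes and 14.2% of the lower DEGs. TTC followed by GAA after any 3 bases, the core of the gamma-activated sequence, matched windows of PSMB8 and TAP1. In TAP1 it lay in the other window (chr6:32852712-32853011), not in the one shown above. It also matched windows of 9.38% of all genes, 8.66% of the tested genes and 12.4% of the lower DEGs. A match is a description of letters, and binding was not measured.

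**Figure D2:**
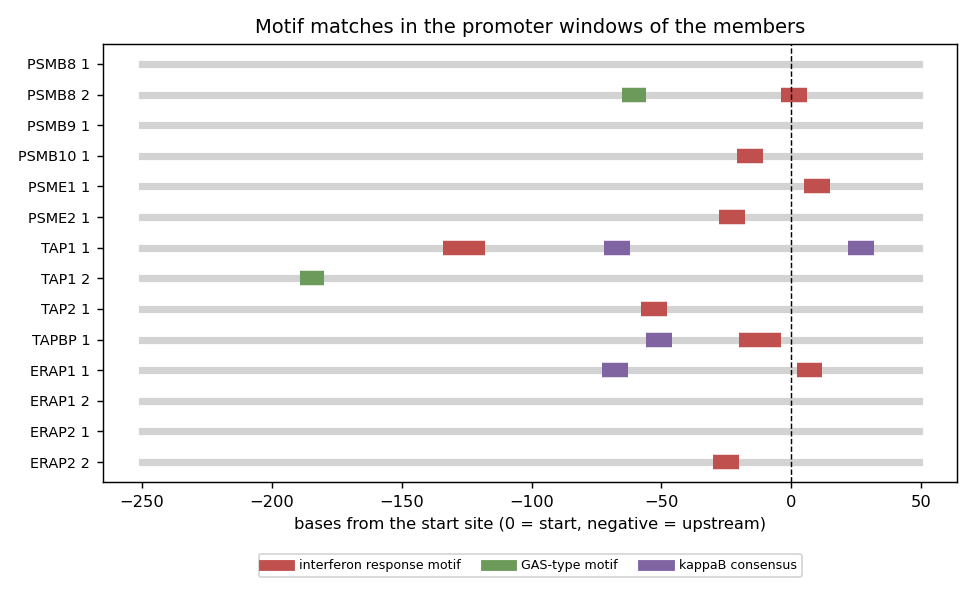
Position of each motif match, in bases from the annotated start (dashed line), in the 14 promoter windows of the 10 genes, numbered where a gene has more than 1 window. The interferon response motif (red) occurs in 9 windows, each of a different gene, and the PSMB9 window has no match.

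Among the members, the immunoproteasome subunits had the largest decreases, although for PSMB10 this did not hold once the counts of a read-through gene were added. The FPKM of PSMB9, also known as LMP2, was 60.8, 61.9 and 95.04 over CELF6-OE replicates 1 to 3, against 210.3, 226 and 231 in Control, with means of 72.6 ± 19.5 and 222 ± 10.9 (SD, n = 3 each). Its log2 fold change was -1.65 (standard error, SE, 0.15, adjusted p = 3.95e-05), the 190th lowest of all tested genes. PSMB8 (LMP7), the chymotrypsin-like subunit that the inhibitors of the immunoproteasome target, had an FPKM of 51.9, 53.6 and 81.3 in CELF6-OE, against 161, 167 and 166 in Control, and fell by 1.44 (SE 0.14, adjusted p = 6.77e-05). In both genes replicate 3 was the highest CELF6-OE library and still lay far below the lowest Control library.

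PSMB10 (MECL-1) had 271, 250 and 332 counts in CELF6-OE, against 850, 953 and 954 in Control. On the log2 scale the change was -1.62 (SE 0.12, adjusted p = 1.61e-05). Of its annotated exon bases, 39.4% also belong to a read-through gene on the same strand (ENSG00000261884, named CTC-479C5.12 in the files). That gene had 1190, 1165 and 1227 counts in CELF6-OE, against 1588, 1869 and 1825 in Control, more than PSMB10 itself, and fell by 0.49 on the log2 scale (adjusted p = 0.00222). With the counts of both genes added, the log2 fold change of PSMB10 was -0.79 (adjusted p = 8.87e-05), so the direction and the call held and the size did not. How the authors assigned reads on shared exons is not given in the sources used here. For IRF9, a gene near PSME2 that also lies under a read-through gene, the table lists 0 to 2 counts per library, and 3116 to 3994 for the read-through gene.

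The standard catalytic subunits that these members replace had log2 differences close to 0 or small. PSMB5, replaced by PSMB8, had an FPKM of 212 ± 6.32 in CELF6-OE and 207 ± 9.51 in Control, with a log2 fold change of 0.0037 (95% interval -0.15 to 0.16, adjusted p = 0.976). The log2 fold change was -0.065 for PSMB6 (95% interval -0.22 to 0.092, adjusted p = 0.562), which PSMB9 replaces. For PSMB7, the partner of PSMB10, it was -0.21 (95% interval -0.35 to -0.069, adjusted p = 0.0444), a small decrease.

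In terms of FPKM, PSMB8 made up 19.1%, 20.4% and 28.1% of the PSMB8 and PSMB5 total over CELF6-OE replicates 1 to 3, against 44.9%, 44.8% and 43.4% in Control. The share of PSMB9 among PSMB9 and PSMB6 was 12.97%, 13.9% and 19.4% in CELF6-OE and 35.6%, 35.3% and 35.5% in Control. For PSMB10 among PSMB10 and PSMB7 the shares were 2.65%, 2.48% and 3.32% against 7.06%, 7.15% and 7.20%. The means thus differed by -21.8, -20.0 and -4.32 percentage points (CELF6-OE minus Control), and the groups did not overlap for any of the 3 pairs (exact permutation test, two-sided, p = 0.1 each, the lowest value that 3 libraries against 3 allow). With the read-through gene added to PSMB10, its share was 22.3% ± 0.862 in CELF6-OE and 28.0% ± 0.548 in Control (SD, n = 3). The FPKM sum of each pair was also lower in CELF6-OE, for example 274 ± 13.8 against 372 ± 12.2 for PSMB8 and PSMB5.

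**Figure D3:**
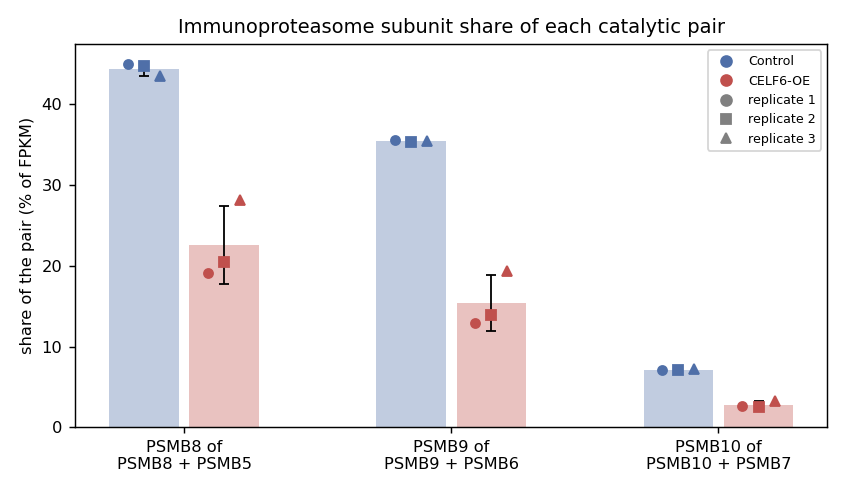
Share of the immunoproteasome subunit in the FPKM of each catalytic pair, in percent. Bars are means, error bars SD (n = 3), and points single libraries of Control (blue) and CELF6-OE (red). In Control PSMB8 holds 44.4% and PSMB9 35.5% of its pair, and in CELF6-OE 22.6% and 15.4%.

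The PA28 subunits were the most abundant members and moved together. PSME2 (PA28 beta) had an FPKM of 197, 186 and 250.1 in CELF6-OE, against 394, 406 and 394 in Control. The change in log2 was -0.95 (SE 0.10, adjusted p = 0.000103). PSME1 (PA28 alpha) had an FPKM of 160, 156 and 196 in CELF6-OE, against 320, 315 and 313 in Control. The fit gave a log2 change of -0.92 (SE 0.086, adjusted p = 4.72e-05). The ratio of PSME2 to PSME1 was 1.23 ± 0.0409 in CELF6-OE and 1.26 ± 0.0298 in Control, and the groups overlapped (two-sided exact permutation test, p = 0.5). Other proteasome activators and an inhibitor were also measured. PSME4 (PA200), a nuclear activator, rose by 0.35 on the log2 scale (adjusted p = 0.00807), and PSME3 (PA28 gamma), the nuclear relative of PSME1 and PSME2, had a log2 fold change of 0.15 (95% interval 0.018 to 0.28, adjusted p = 0.109). PSMF1 (PI31), a proteasome inhibitor, fell by 0.33 (adjusted p = 0.00522).

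Among 40 genes of the standard proteasome (the 3 catalytic subunits, 16 other core and assembly genes and 21 genes of the 19S regulatory particle, with 42 gene identifiers), 4 identifiers fell, 0 rose and 0 were DEGs. Their median log2 change was -0.033, with values from -0.34 for the assembly chaperone PSMG4 to 0.19 for PSMD12, a 19S subunit that did not pass (adjusted p = 0.0948). PSMD10, another 19S subunit, was also at 0.19 (adjusted p = 0.0888). Besides PSMB7 and PSMG4 (adjusted p = 0.0352), those that fell were the core subunits PSMB3 by 0.24 (adjusted p = 0.0472) and PSMB2 by 0.21 (adjusted p = 0.0443). Of the 18 identifiers of the other core and assembly genes, 15 had a log2 change below 0 (median -0.11). For the 19S particle it was 9 of 21 (median 0.015). The count of 0 that rose, over all 42 identifiers, was also 0 with DESeq2 and limma-voom. At an unadjusted p under 0.05, 4 were higher and 6 were lower. The counts that fell or rose at an adjusted p under 0.05 changed when 1 library was left out. Without CELF6-OE replicate 1, 2 or 3 or Control replicate 2 the number that fell was 0, and it was 1 without Control replicate 3. Without Control replicate 1, 3 identifiers rose, and without Control replicate 3, 2 rose.

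The transporter subunits fell to unlike extents. TAP1 had an FPKM of 48.4, 48.6 and 67.2 in CELF6-OE, against 128, 134 and 133 in Control. Its log2 change was -1.30 (SE 0.11, adjusted p = 3.81e-05). TAP2 had an FPKM of 4.75, 5.25 and 6.34 in CELF6-OE, against 10.1, 9.61 and 9.98 in Control. Its log2 change was -0.89 (SE 0.096, adjusted p = 0.000115). The ratio of TAP1 to TAP2 was 10.2, 9.25 and 10.6 in CELF6-OE and 12.8, 14.0 and 13.3 in Control, without overlap (exact permutation test, two-sided, p = 0.1). The level of TAP2 in this ratio is uncertain. Of the TAP2 exon bases, 19.5% are shared with a read-through gene that joins TAP2 to HLA-DOB (ENSG00000250264, named XXbac-BPG246D15.9 in the files). That gene had 2119, 2306 and 2606 counts in CELF6-OE, against 4385, 4791 and 4898 in Control, compared with 1064, 1201 and 1383 and 2350, 2339 and 2432 for TAP2. With both added, the log2 fold change of TAP2 was -0.92 (adjusted p = 5.26e-05), close to the value for TAP2 alone.

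TAP1 and PSMB9 have nearby starts on opposite strands. PSMB9 had 1.26, 1.27 and 1.41 times the FPKM of TAP1 in CELF6-OE and 1.64, 1.68 and 1.74 times in Control. The ratio of PSMB9 to PSMB8 was 1.17 ± 0.00845 in CELF6-OE and 1.35 ± 0.0436 in Control. Neither ratio overlapped between the groups (two-sided exact permutation test, p = 0.1 each), and PSMB9 stood lower relative to both genes in CELF6-OE. In all, the exact test was run on 5 ratios, 4 shares and 3 pair sums, and with 0.1 as the smallest possible p none of them can pass 0.05, adjusted or not.

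Tapasin (TAPBP), the bridge between TAP and class I, had an FPKM of 29.2, 30.2 and 36.4 in CELF6-OE, against 59.7, 61.9 and 63.6 in Control. Its log2 change was -0.98 (SE 0.087, adjusted p = 3.81e-05). Its relative TAPBPL (TAPBPR), which edits peptides outside the loading complex, fell by 1.86 (SE 0.12, adjusted p = 9.27e-06), from an FPKM of 12.5 ± 0.823 to 3.49 ± 0.638 (SD, n = 3). Of the 7 loading partners looked up, 4 fell. B2M, the light chain of class I, fell by 1.38 (adjusted p = 3.98e-05). The general chaperones of the endoplasmic reticulum moved less. CALR (calreticulin) fell by 0.40 (adjusted p = 0.00167) and PDIA3 (ERp57) by 0.30 (adjusted p = 0.0058), both under the fold change of a DEG, while CANX (calnexin), HSPA5 and UGGT1 had log2 fold changes of 0.092, -0.12 and 0.073 (adjusted p of 0.399, 0.195 and 0.472).

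The aminopeptidases were the least abundant members. ERAP1 had an FPKM of 1.84, 2.41 and 2.62 in CELF6-OE, against 4.93, 4.51 and 3.90 in Control. Its log2 change was -0.98 (SE 0.12, adjusted p = 0.000251). ERAP2, which trims a different set of peptide ends, had 91, 120 and 117 counts in CELF6-OE, against 224, 189 and 160 in Control. Its log2 change was -0.73 (SE 0.16, 95% interval -1.08 to -0.38, adjusted p = 0.0101). Among the members, its groups lay closest together relative to their level. The ratio of ERAP1 to ERAP2 in FPKM was 4.45 ± 0.207 in CELF6-OE and 5.38 ± 0.395 in Control (SD, n = 3), without overlap (exact permutation test, two-sided, p = 0.1). Without CELF6-OE replicate 1 the log2 fold change of ERAP2 was -0.62 and its adjusted p was 0.0528, which no longer passed. Among 7 other peptidases that trim or destroy such peptides, LAP3 (leucine aminopeptidase), itself known to be induced by interferon gamma, fell by 0.91 (SE 0.11, adjusted p = 0.000246). The other 6 did not pass, and had log2 fold changes from -0.19 for LNPEP to 0.048 for BLMH.

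**Figure D4:**
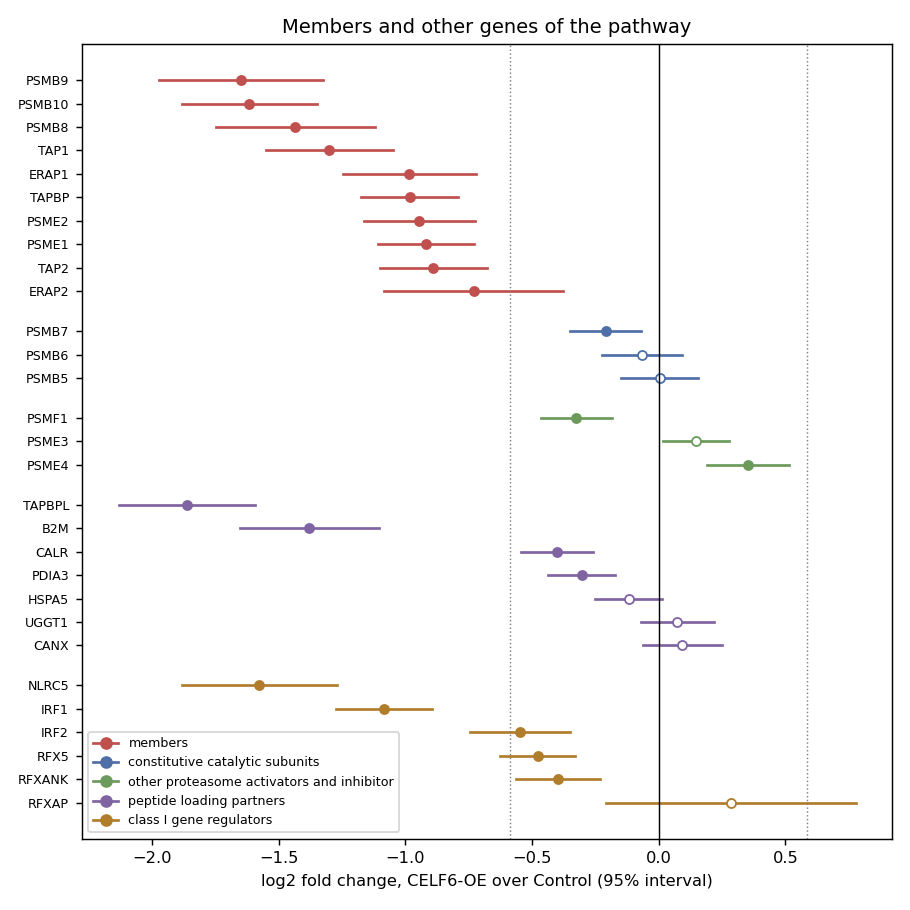
Log2 fold change of CELF6-OE over Control with its 95% interval, for the 10 members and 4 groups of other genes of the pathway, with filled points at an adjusted p under 0.05 and dotted lines at a fold change of 1.5. The members run from -1.65 to -0.73, and the standard catalytic subunits from -0.21 to 0.0037.

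Levels can be set in order by FPKM. In Control the order was PSME2, PSME1, PSMB9, PSMB8, TAP1, TAPBP, PSMB10, TAP2, ERAP1 and ERAP2, and no neighbours in it overlapped over the 3 libraries. The order of the means was the same in CELF6-OE. There PSME2 and PSME1 overlapped over the libraries, as did PSMB9 with PSMB8, PSMB8 with TAP1, and PSMB10 with TAP2. The levels of PSMB10 and TAP2 exclude reads listed under their read-through genes.

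CELF6-OE replicate 3 was the library closest to Control in each of the 10 members. The median member stood at 44.3%, 47.8% and 58.9% of the Control mean FPKM in CELF6-OE replicates 1 to 3, and at 98.4% to 101% in the Control libraries. In replicate 1 the members ranged from 27.3% for PSMB9 to 51.6% for ERAP2, and in replicate 3 from 39.8% for PSMB10 to 67.2% for ERAP2. Replicate 3 was the highest of the 3 CELF6-OE libraries for 70.5% of the 936 DEGs that were lower in CELF6-OE and for 32.5% of all tested genes. It also had the lowest CELF6 level, an FPKM of 172 against 270.1 and 295, and the part of this in the result was not tested. Without replicate 3, all 10 members were still lower at an adjusted p under 0.05.

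**Figure D5:**
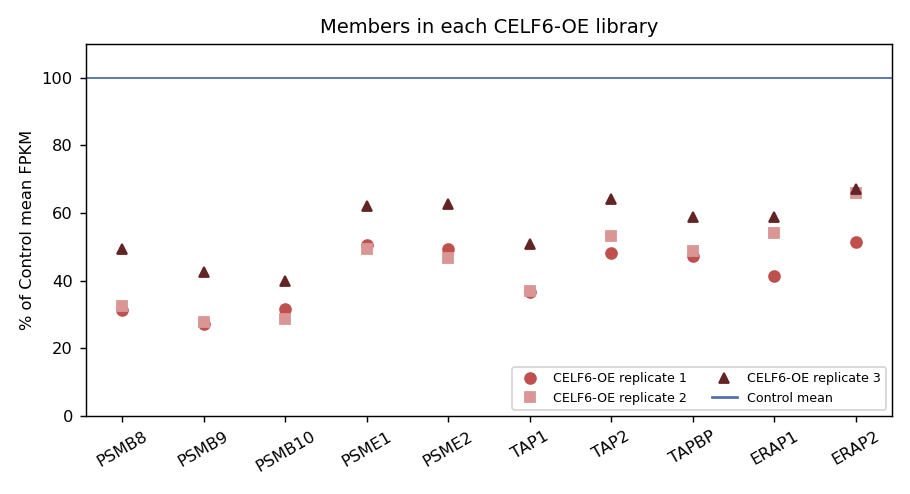
FPKM of each member in the 3 CELF6-OE libraries as a percent of its mean in Control (blue line at 100). Replicate 3 (triangles) is the highest for every member, from 39.8% for PSMB10 to 67.2% for ERAP2.

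Genes beside the members on the chromosome did not all share the decrease. EMC9, which starts between PSME1 and PSME2 and overlaps the end of PSME1, had 1634, 1559 and 1463 counts in CELF6-OE, against 1342, 1569 and 1601 in Control (log2 fold change 0.12, adjusted p = 0.355). RNF31, a ubiquitin ligase subunit that overlaps PSME2 on the opposite strand, fell by 0.29 (adjusted p = 0.0188). The genes on either side of TAPBP, RGL2 and ZBTB22, had log2 fold changes of 0.026 and -0.29 (adjusted p of 0.867 and 0.0876). CAST, which overlaps ERAP1, and LNPEP, which follows ERAP2, were at -0.18 and -0.19 (adjusted p of 0.194 and 0.230). CTRL and LCAT beside PSMB10 were at 0.20 and -0.063 (adjusted p of 0.491 and 0.816), and FITM1 and PCSK1, beside PSME1 and ERAP1, had too few counts to be tested. Within the MHC block, PSMB8-AS1, a non-coding RNA antisense to PSMB8 and TAP1, fell by 1.68 (adjusted p = 5.08e-05). It overlaps PSMB9 on the same strand and shares 5.21% of the PSMB9 exon bases, so the size of its change is uncertain too. HLA-DOB, next to TAP2, had 4, 6 and 4 counts in CELF6-OE, against 37, 29 and 19 in Control and fell by 2.50 (adjusted p = 0.0014). The size of this change is uncertain, because HLA-DOB overlaps, on the same strand, the read-through gene that joins it to TAP2. That gene had 2119 to 4898 counts per library and fell by 0.93 (adjusted p = 5.42e-05). HLA-DMB on the far side of PSMB9 was at -0.22 (adjusted p = 0.657). The kit keeps strand, but the strand setting of the counting is not given in the sources used here, so reads of overlapping genes on opposite strands may be mixed. Such genes shared 17.3% of the exon bases of PSMB8, 14.2% of TAP1, 21.0% of TAPBP and 10.2% of ERAP1.

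Among the class I heavy chains, which receive the peptides, HLA-B, HLA-C, HLA-E and HLA-F fell, with log2 differences of -2.37, -1.71, -1.50 and -2.14, and HLA-G was too low to be tested. Their sequences are alike, so counting can divide their reads. Of 6 regulators of class I genes, 5 fell. NLRC5, the transactivator of class I genes, fell by 1.58 (SE 0.14, adjusted p = 3.81e-05), from an FPKM of 5.44 ± 0.163 to 1.86 ± 0.471 (SD, n = 3). IRF1, a factor that binds interferon response motifs, fell by 1.09 (adjusted p = 2.01e-05). IRF2, RFX5 and RFXANK also fell, with log2 changes of -0.55, -0.48 and -0.40 (adjusted p of 0.00195, 0.000743 and 0.00458), less than the fold change of a DEG, and RFXAP was at 0.28 (adjusted p = 0.408).

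The median profile of the members over the 6 libraries, in log2 CPM relative to the Control mean, was compared with those of 11202 other genes with a mean FPKM of at least 1. The 5 most similar were SOCS1, MOV10, DKK3, PARP3 and RNF213, with root mean square differences from 0.0483 to 0.0695 on the log2 scale. SOCS1 had an FPKM of 1.12, 1.17 and 1.53 in CELF6-OE and 2.52, 2.42 and 2.50 in Control. MOV10 had an FPKM of 8.80, 8.51 and 10.96 in CELF6-OE and 18.1, 19.6 and 19.5 in Control.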

How the data were processed

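Per the study's methods, reads trimmed by FASTX-Toolkit were mapped with TopHat2 (genome build GRCh38), and the authors counted uniquely located reads per gene. They deposited counts without normalization and FPKM values rounded to 2 decimals. Which tool counted the reads, whether it used strand, and which annotation it read are not given in the sources used here. No column was left out.

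Counts were scaled with TMM and tested with edgeR 4.0.16 in R 4.3.3 (glmQLFit, glmQLFTest) without covariates, on the 15847 of 29889 genes kept by filterByExpr (minimum count 10), with Benjamini-Hochberg adjustment. The prior degrees of freedom were 7.15 and the biological coefficient of variation was 8.62%. The prior count for log2 fold changes was 0.125, and standard errors were derived from the F statistic. All 10 members passed the filter. FPKM served for levels, shares and exact permutation tests. Library pairs within a group differed beyond counting noise (chi-square per degree of freedom 7.69 to 29.3). The scripts were tested on simulated data. DESeq2 1.42.0 and limma 3.58.1 were alternatives.

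The members and gene lists were chosen with earlier results of these data known. Besides the members, the genes that could be named were those of the short lists, the DEGs and the 2 highest and 2 lowest of the longer proteasome and peptidase lists, the neighbours, the cell type markers and the 5 most similar profiles. The other genes of the standard proteasome that fell were named after their values were seen. A result of the class I heavy chain list is not reported here.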

Additional observations from a re-analysis of the deposited data

How the results depend on the processing

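The number of members lower at an adjusted p under 0.05 was 10 under RLE, upper quartile and library-size scaling, without the low-count filter, with DESeq2 or limma-voom, without the CELF6 counts and with each library left out except CELF6-OE replicate 1, where it was 9 because ERAP2 was lost (log2 fold change -0.62, adjusted p = 0.0528). No member changed direction. With a fold change of at least 2 in place of 1.5, 4 members were DEGs (PSMB8, PSMB9, PSMB10 and TAP1). The share of all tested genes at that threshold was not counted. It was below 551 of 15847 in this direction, because ERAP1, the 551st lowest, was at -0.98. The largest move of a member was that of PSMB10, to -0.79 with its read-through gene added, an alternative chosen after seeing the data. Leaving out 1 library moved ERAP2 between -0.83 and -0.61. On the log2(FPKM + 1) scale ERAP2, with low FPKM, was at -0.27. The difference in the PSMB10 share was -5.24 percentage points from counts without length scaling and -5.71 with the read-through gene, against -4.32. The number of standard proteasome genes that fell was 1 with upper quartile scaling and 0 to 5 when 1 library was left out, and the number that rose was 2 with library size only and 0 to 3 when 1 library was left out. For the other trimming peptidases, 1 to 2 fell when 1 library was left out, with 2 without Control replicate 3. Libraries with equal replicate numbers did not deviate together over all tested genes (correlations of deviations -0.0113, -0.0212 and -0.0722). The labels do not say whether equal numbers were prepared together, and these correlations cannot show it. With the replicate block, 10 members were lower and 1 standard proteasome gene fell. Over all genes, 1820 were lower and 1025 higher, against 1570 and 720 with the block, and 1032 to 2370 and 281 to 1906 when 1 library was left out. DEGs numbered 936 lower and 216 higher, against 423 and 55 on the log2(FPKM + 1) scale, and 348 were higher without Control replicate 1. ERAP2 had the fewest counts of the members, 91 to 224 per library.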
